A study of Mus musculus with 721 samples.

Results

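Polycomb repressive complex 2 (PRC2) places methyl groups on lysine 27 of histone H3, a mark of silenced genes. Ezh2 or its paralog Ezh1 carries the methyltransferase activity, and Suz12, Eed and Rbbp4 complete the core. Suz12 holds the complex together, Eed binds the methylated lysine and stimulates the enzyme, and Rbbp4 is a histone chaperone shared with other chromatin complexes. Accessory subunits part the core into alternative forms, with Mtf2 or Phf19, Polycomb-like proteins that bring the complex to CpG-rich DNA, in PRC2.1 and Jarid2, which contacts nucleosomes and stimulates the enzyme, in PRC2.2. In the early embryo PRC2 is known for holding developmental regulators silent until lineages are specified.

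The 8 genes described here were chosen by name as these catalytic, core and accessory subunits, and each has a row among the 24483 gene rows measured. The cells came from wild-type C57Bl/6Babr mouse embryos at embryonic day (E) 3.5, 4.5, 5.5 and 6.5, with no treatment and no transgene, and were picked by hand after the outer layers were removed by immunosurgery or dissection. Polyadenylated RNA of each picked cell was amplified and sequenced, and 721 cells had passed the study's filters. Of the cells of E6.5, 82 were titled E6.75 and came from 2 embryos without a plate name, and they were taken with that stage. The titles number 36 embryos, which is more than the study's text gives, and 9 E3.5 cells (plates P11.P6.P10) carry no embryo number. Those 9 cells were kept as 1 sum that may hold more than 1 embryo, here called the unnumbered sum. Embryos were the replicates, so the cells that an embryo gave to a class were added up into 1 sum of raw counts where there were at least 3 of them, and levels are given as normalised CPM, the count relative to the library total after TMM scaling. Nothing in the labels says whether embryos without a plate name at E6.5 are other embryos than those of the same number on a named plate, and they were kept apart. They are called E6.5 embryos 10 to 13 here. The embryo numbers at E6.5 are those of this report and can differ from the numbers in the titles.

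Cells were clustered and the clusters named from marker lists, which gave 99 inner cell mass (ICM) cells at E3.5 (10 sums, the unnumbered one included), 23 epiblast-like and 82 primitive endoderm (PrE)-like cells at E4.5 (5 sums each), 259 epiblast-like and 8 visceral endoderm (VE)-like cells at E5.5 (8 sums and 1 sum), and 175 epiblast-like, 39 VE-like and 25 primitive streak-like cells at E6.5 (13, 7 and 1 sums). A further 11 cells at E6.5 stayed unnamed. The study left out E4.5 cells with markers of both lineages from its later analyses, and here no such class was made. Of the PrE-like cells, 17 fell in a cluster that also held 32 of the E3.5 cells. Total counts per cell ran from 66896 to 3792936 with a median of 692863, and 128 of the cells had been seen as doubles at picking. The 24 endoderm markers summed to between 12595 and 24615 CPM in the PrE-like sums and between 1486 and 3582 CPM in the epiblast-like sums of the same embryos. At E6.5 they summed to between 20029 and 48502 CPM in VE-like sums and to between 787 and 6026 CPM in epiblast-like sums, so endoderm transcripts were also present in cells called epiblast-like, and their part in the results at E6.5 was not tested. At E4.5 the 16 epiblast markers with a row summed to between 6936 and 10824 CPM in PrE-like sums. They held between 15344 and 19004 CPM in epiblast-like sums. Of the 82 PrE-like cells 31 were doubles, and of the 23 epiblast-like cells 7. The part of these epiblast transcripts in the lineage differences at E4.5 was not tested. The 9 trophoblast markers with a row summed to a median of 708 CPM in ICM sums and 288 CPM in E4.5 epiblast-like sums. In sums of this kind, fewer copies per cell and fewer cells with the transcript give the same value.

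The genes lie on 7 autosomes of GRCm38 and all are protein-coding. Ezh2 spans chr6:47530139-47595341 and Ezh1 chr11:101191115-101226463, both on the minus strand. Suz12 spans chr11:79993106-80034123 on the plus strand, Eed chr7:89954654-89980983 and Rbbp4 chr4:129307100-129335370 on the minus strand. Jarid2 spans chr13:44729474-44921643 and Mtf2 chr5:108065674-108109004 on the plus strand, and Phf19 chr2:34893757-34914026 on the minus strand. Whether counting used strand is not given in the sources used here, and exons of genes on the opposite strand cover 18.05% of the exon bases of Rbbp4 (Sync and Gm26722) and between 2.61% and 6.93% of those of Ezh2, Suz12, Eed and Mtf2, where reads of the partners could not be told apart without strand. No exon of another gene overlaps those of Ezh1, Jarid2 and Phf19.

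Ezh2, Suz12, Jarid2 and Mtf2 passed the test in steps of the epiblast described below, and their promoters are shown for that reason, from RefSeq on build GRCm38.p6. Each line runs 5′ to 3′ on the gene's own strand, from 250 bases before the start of the transcript to 30 bases into it. The windows are chr6:47595001-47595280 (minus strand), chr11:79992856-79993135, chr13:44730524-44730803 and chr5:108065424-108065703 (plus strand), and for Jarid2 and Mtf2, which have a pair of listed starts each, the first is given. Capitals mark the E2F letters TTTCCCGC or TTTGGCGC and the CCAAT letters, searched on both strands.
Ezh2: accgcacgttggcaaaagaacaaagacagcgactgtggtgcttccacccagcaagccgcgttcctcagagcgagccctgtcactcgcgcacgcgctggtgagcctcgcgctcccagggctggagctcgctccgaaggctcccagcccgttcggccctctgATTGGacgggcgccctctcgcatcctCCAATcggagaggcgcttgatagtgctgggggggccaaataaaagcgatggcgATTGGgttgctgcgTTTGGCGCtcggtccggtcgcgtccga
Suz12: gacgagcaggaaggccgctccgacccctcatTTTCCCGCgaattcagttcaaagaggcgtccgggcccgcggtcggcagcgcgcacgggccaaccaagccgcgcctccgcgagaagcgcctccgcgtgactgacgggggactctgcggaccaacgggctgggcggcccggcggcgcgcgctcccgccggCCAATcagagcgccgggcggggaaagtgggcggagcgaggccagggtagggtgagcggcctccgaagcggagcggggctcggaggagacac
Jarid2: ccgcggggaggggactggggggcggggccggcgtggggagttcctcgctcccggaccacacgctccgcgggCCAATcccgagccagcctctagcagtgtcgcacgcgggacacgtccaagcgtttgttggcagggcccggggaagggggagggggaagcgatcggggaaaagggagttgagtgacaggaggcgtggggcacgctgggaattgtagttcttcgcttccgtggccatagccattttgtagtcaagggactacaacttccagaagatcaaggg
Mtf2: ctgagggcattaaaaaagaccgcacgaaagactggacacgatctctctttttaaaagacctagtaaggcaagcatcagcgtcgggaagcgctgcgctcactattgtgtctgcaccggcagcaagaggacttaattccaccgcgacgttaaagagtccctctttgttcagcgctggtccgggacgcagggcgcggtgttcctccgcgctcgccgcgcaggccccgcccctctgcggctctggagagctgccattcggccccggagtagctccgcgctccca
The Ezh2 window held 1 E2F match (TTTGGCGC) beside 3 CCAAT matches, and the Suz12 window 1 E2F match (TTTCCCGC) and 1 CCAAT match, with no overlap between the kinds. Of all 32851 promoter windows of this length, 1.46% held either of the E2F strings and 36.1% held CCAAT. The Jarid2 window held 1 CCAAT match, and neither motif was found in the Mtf2 window. Among the other members, the letters TTTCCCGC were also found on the reverse strand of the Phf19 window. These are matches of letters and nothing more.

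Ezh2, the main methyltransferase of embryonic cells, was measured in every sum. Its level ran from 129 to 549 normalised CPM (median 333) in the 10 ICM sums. In the E4.5 epiblast-like sums it was 189, 174, 228, 254 and 238 in embryos 1 to 5, and in the PrE-like sums of the same embryos 70.4, 164, 90.6, 126 and 144. Every epiblast-like value at E4.5 lay above every PrE-like value, and 3 of the 5 PrE-like sums lay below all ICM sums. At E5.5 the epiblast-like sums held 125 to 246 (median 151), and at E6.5 they held 146 to 427 (median 297). The 7 VE-like sums at E6.5 held 169 to 266 (median 213), all above the highest PrE-like value.

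Between ICM and PrE-like cells Ezh2 fell by 1.52 ± 0.27 (SE) on the log2 scale (edgeR quasi-likelihood test, adjusted p = 3.73e-05). Within the E3.5 sums the median was 470.3 on plate P8 (5 embryos), 280.0 on P9 (4 embryos) and 129 in the unnumbered sum, and no plate name was shared between the E3.5 and E4.5 sums, so plate and stage cannot be told apart. Ezh2 rose from E5.5 to E6.5 in the epiblast by 0.75 ± 0.21 (adjusted p = 0.0141), but by 0.14 (adjusted p = 0.916) against the 4 E6.5 embryos without a plate name alone. It also rose from PrE-like to VE-like cells by 0.90 ± 0.28 (adjusted p = 0.0282). Against the ICM, the E4.5 epiblast-like sums differed by -0.66 ± 0.26 (adjusted p = 0.0650), which passed without E3.5 embryo 9 (0.0464) or the unnumbered sum (0.0254), with DESeq2's size factors (0.0432), when thinned to 300000 counts per cell (0.0468), with Ward clustering (0.0261) and in DESeq2 (0.0237). In all, this difference from the ICM passed in 4 of 11 alternatives and in 2 of 15 fits without 1 embryo. Its estimate ran from -0.77 to -0.17 over the alternatives, with an adjusted p of up to 0.855. From E4.5 to E5.5 the difference was -0.39 ± 0.26 (adjusted p = 0.412). The rise in the endoderm did not pass without doubles (adjusted p = 0.0607), with sums of at least 5 cells (0.114) or of at least 1 cell (0.217), with no filter on low counts (0.0526), without E4.5 embryo 1 (0.140) or 3 (0.0794), or without E6.5 embryo 2 (0.0502), 5 (0.0640) or 6 (0.0578). It was 0.54 (adjusted p = 0.500) with the VE-like sums of the 2 embryos without a plate name alone.

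Ezh1, the paralog with weaker methyltransferase activity, stayed at low levels. It ran from 0 to 79.3 normalised CPM (median 29.2) in the ICM sums and from 0 to 42.5 (median 8.33) in the E6.5 epiblast-like sums, with 3 sums at 0 in all. The E4.5 epiblast-like sums spread from 1.497 to 37.4 and the PrE-like sums from 9.29 to 26.7. No comparison of Ezh1 passed, and its standard errors in the 7 comparisons between classes, from 0.74 to 1.06 on the log2 scale, were wider than those of any other member but Phf19. Per kb of exon, Ezh2 made up 91.5% ± 6.32 (SD, n = 10) of the sum of the pair in the ICM, 93.6% ± 6.37 (n = 5) and 87.4% ± 4.11 (n = 5) in E4.5 epiblast-like and PrE-like cells, 92.0% ± 2.01 (n = 8) in the epiblast of E5.5 and 95.8% ± 4.24 (n = 13) in the epiblast-like cells of E6.5. These ranges of shares overlapped between all those classes.

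**Figure D1:**
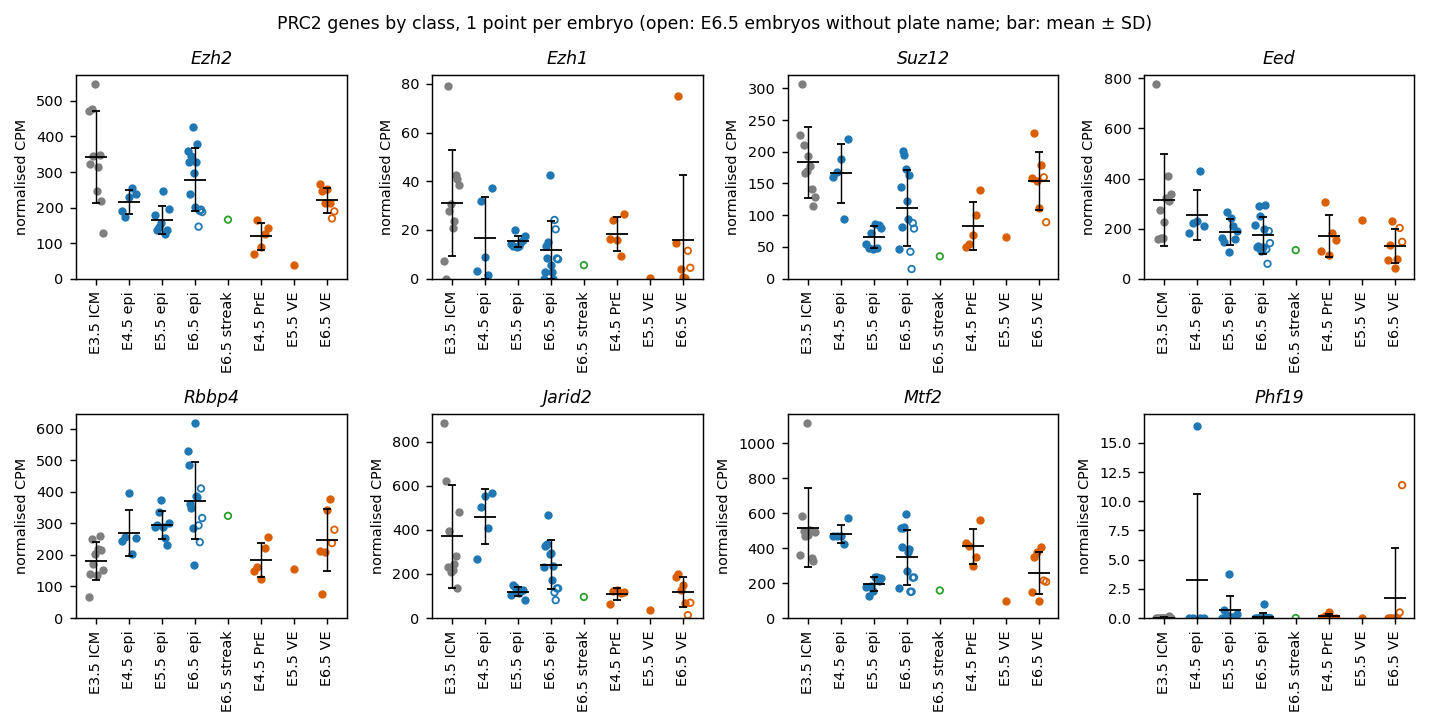
Normalised CPM of each PRC2 gene (vertical axes, from 0) by class (horizontal axes), with 1 point per embryo sum and the mean ± SD over embryos as the bar; open points are E6.5 embryos without a plate name. Jarid2, Suz12 and Mtf2 are lower at E5.5 than at E4.5 in the epiblast with no overlap, while Phf19 sits at or near 0 and 1 sum of 16.5 stands alone at E4.5.

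Suz12, the scaffold of the core, ran from 115 to 307 normalised CPM (median 174) in the ICM. The E4.5 epiblast-like sums held 161, 168, 188, 93.5 and 220.2 in embryos 1 to 5, against 50.5, 54.9, 69.6, 101 and 139 in the PrE-like sums of those embryos. Suz12 was lower in the PrE-like sum of 4 of 5 embryos, but the groups overlapped. The E5.5 epiblast-like sums held 46.8 to 86.4 (median 62.7), each of the 8 below each of the 5 of E4.5. At E6.5 the epiblast-like sums spread from 15.3 to 200.4 (median 94.1) and the VE-like sums from 89.0 to 230.1 (median 158).

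From E4.5 to E5.5 Suz12 fell by 1.35 ± 0.36 on the log2 scale (adjusted p = 0.0164), and from ICM to PrE-like cells by 1.14 ± 0.37 (adjusted p = 0.0226). The latter drop lost its call without doubles (adjusted p = 0.0572), with at least 5 cells per sum (0.114) and without E4.5 embryo 1, 2 or 3 (0.0850, 0.0725 and 0.0603). From E5.5 to E6.5 it differed by 0.77 ± 0.29 (adjusted p = 0.0706), and it passed without E6.5 embryo 1, 10 or 11 (0.0469, 0.0434 and 0.0219), with sums of at least 5 cells (0.0337), without doubles (0.0432) and in limma (0.0356). In all, this step passed in 4 of 14 alternatives and in 3 of 21 fits without 1 embryo. Over the alternatives its adjusted p reached 0.902. The lineage difference of Suz12 changed by 1.48 ± 0.50 between E4.5 and E6.5, from -1.0004 ± 0.41 to 0.48 ± 0.30 for endoderm against epiblast. This change had an adjusted p of 0.0830 in edgeR, 0.0291 in DESeq2 and 0.00389 in limma on means of log2(CPM + 1) over cells. It passed in 2 of 15 alternatives and in 0 of 18 fits without 1 embryo.

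Eed, the reader subunit, had no passing comparison. It ran from 160 to 779 normalised CPM (median 293) in the ICM, where embryo 1 held the 779 and the next embryo 409.9. The E4.5 epiblast-like sums held 182, 221, 232, 430.3 and 211 and the PrE-like sums 111, 306, 96.1, 181 and 155 in embryos 1 to 5, and the groups overlapped. The median was 177 at E5.5 and 142 at E6.5 in the epiblast, and 136 in VE-like cells. The largest of its differences was from ICM to PrE-like cells, at -0.89 ± 0.36 (adjusted p = 0.0740). It passed without E4.5 embryo 2 (-1.21, adjusted p = 0.0281), when thinned to 300000 counts per cell (0.0445) and in DESeq2 (0.0348). These were 1 of 15 fits without 1 embryo and 2 of 11 alternatives. The adjusted p reached 0.219 and 0.141 among them.

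Rbbp4, the histone chaperone, had no passing comparison either. Its median was 187 normalised CPM in the ICM (range 66.4 to 259.5), 254 in the E4.5 epiblast (202 to 394), 292 at E5.5 (230.1 to 372) and 359.6 at E6.5 (168 to 619). In endoderm the median was 162 in PrE-like cells (125 to 257) and 237 in VE-like cells (77.4 to 378). Each of the 3 steps of the epiblast had a positive estimate, 0.58 ± 0.26, 0.13 ± 0.28 and 0.33 ± 0.22 on the log2 scale, with adjusted p of 0.116, 0.891 and 0.362. The lineages of E6.5 differed by -0.58 ± 0.24, VE-like against epiblast-like (adjusted p = 0.0765), which passed without E6.5 embryo 8 (0.0497) and in limma (0.0277). These were 1 of 13 fits without 1 embryo and 1 of 16 alternatives, over which the adjusted p reached 0.717.

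Jarid2, the subunit of PRC2.2, was the member that passed the edgeR test between the lineages at both stages. The E4.5 epiblast-like sums held 266, 504, 555, 409 and 567 normalised CPM in embryos 1 to 5, and the PrE-like sums of the same embryos 64.2, 122, 128, 115 and 119. The epiblast-like value was the higher in all 5 embryos and the groups did not overlap. The ICM sums spread from 138 to 882 (median 263), all above the PrE-like sums and on both sides of the epiblast-like ones. At E5.5 the epiblast-like sums held 83.7 to 148 (median 122), below every value of E4.5, and at E6.5 they held 81.0 to 466 (median 238). The VE-like sums of E6.5 held 188, 199.7, 129, 149, 69.2, 13.1 and 69.3 in embryos 2, 5, 6, 7, 8, 12 and 13, each lower than the epiblast-like sum of the same embryo, although the groups overlapped.

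Jarid2 was lower in PrE-like than in epiblast-like cells by -2.07 ± 0.45 on the log2 scale (adjusted p = 0.00277) and in VE-like than in epiblast-like cells by -1.05 ± 0.34 (adjusted p = 0.0273). With the embryo as a block the values were -2.07 (adjusted p = 9.15e-05) and -1.33 (adjusted p = 0.0230). At E6.5 the difference was -1.06 (adjusted p = 0.0292) on plates P1 to P3 alone and -1.55 (adjusted p = 0.166) in embryos without a plate name, of which 2 have a VE-like sum. It did not pass without cells titled E6.75 (-0.88, adjusted p = 0.0812) or without E6.5 embryo 8 (-0.99, adjusted p = 0.0547), with sums of at least 5 cells (-1.43, adjusted p = 0.0541) or fitted on the groups compared alone (adjusted p = 0.0902). The size of the lineage difference was not shown to differ between the stages (1.02 ± 0.54, adjusted p = 0.332).

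Along the stages Jarid2 fell by 1.75 ± 0.41 from ICM to PrE-like cells (adjusted p = 0.00167) and by 1.94 ± 0.39 from E4.5 to E5.5 in the epiblast (adjusted p = 8.42e-04). From E5.5 to E6.5 it rose by 1.02 ± 0.32 (adjusted p = 0.0276), a call lost without E5.5 embryo 9 (adjusted p = 0.0535), without E6.5 embryo 5 (0.0614) or with Ward clustering (0.0886). Against the 4 E6.5 embryos without a plate name alone it was -0.024 (adjusted p = 1). The step from ICM to E4.5 epiblast-like cells gave 0.32 ± 0.37 (adjusted p = 0.645), and that from PrE-like to VE-like cells 0.09 ± 0.41 (adjusted p = 0.990).

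**Figure D2:**
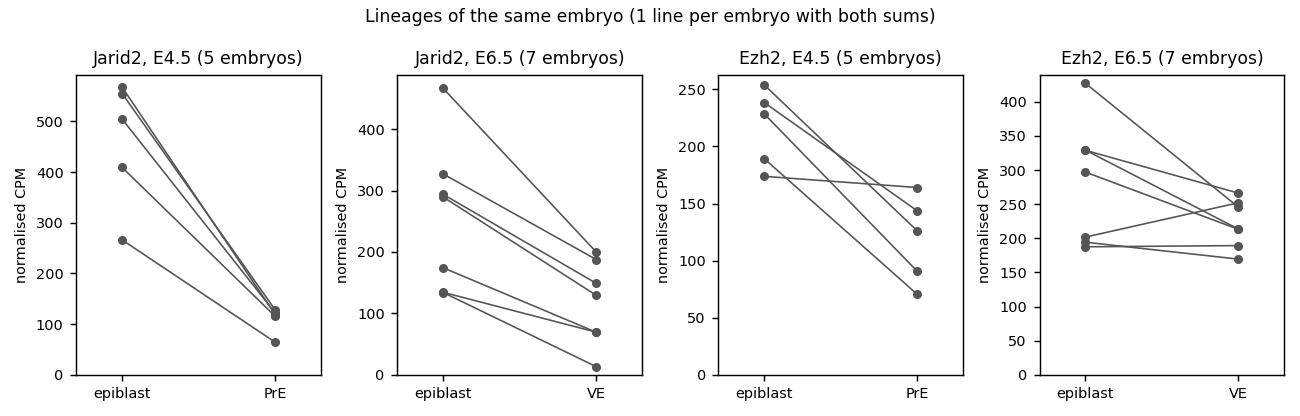
Normalised CPM of Jarid2 and Ezh2 (vertical axes, from 0) in the epiblast-like and endoderm-like sums of the same embryo, with 1 line per embryo that has both (5 at E4.5, 7 at E6.5). The Jarid2 line goes down in 5 of 5 and in 7 of 7 embryos, and the Ezh2 line in 5 of 5 and in 5 of 7.

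Mtf2, the Polycomb-like subunit measured throughout, ran from 325 to 1118 normalised CPM (median 482) in the ICM. The E4.5 epiblast-like sums held 469, 469, 469.7, 426 and 570.2 in embryos 1 to 5, and the PrE-like sums 431, 415, 299, 349 and 561. The PrE-like value was the lower in all 5 embryos, but by little, and the groups overlapped (-0.23 ± 0.34, adjusted p = 0.822). The E5.5 epiblast-like sums held 127 to 236 (median 197), each below each value of E4.5, a drop by 1.31 ± 0.30 on the log2 scale (adjusted p = 0.00474). At E6.5 the epiblast-like sums held 150.4 to 596 (median 375), a rise by 0.84 ± 0.25 (adjusted p = 0.0183) that was -0.0023 (adjusted p = 1) against the 4 embryos without a plate name alone. The VE-like sums held 96.5 to 405 (median 214) and differed from the PrE-like ones by -0.68 ± 0.31 (adjusted p = 0.144), which passed without doubles (-0.85, adjusted p = 0.0451). This was 1 of 14 alternatives, and 0 of 12 fits without 1 embryo passed.

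Phf19, the other Polycomb-like subunit, was at or near 0 in nearly all sums. It had 2 counts over the 10 ICM sums, 4 over the 5 PrE-like sums, 76 over the 8 epiblast-like sums of E5.5 and 11 over the 13 of E6.5. All 49 counts of the E4.5 epiblast-like class were in embryo 3 (16.5 normalised CPM) and 33 of the 35 counts of the VE-like class in embryo 13 (11.4). The E4.5 epiblast-like class against the ICM passed (adjusted p = 0.0112) with a ratio of the pooled levels of 91.2 (95% counting interval 23.9 to 775), and without E4.5 embryo 3 it did not (adjusted p = 0.653) and its estimate turned to the other side. That call therefore rests on 1 embryo, and no step of Phf19 is described as a change here. All 11 counts of the E6.5 epiblast-like class were in embryo 8, and without it the step from E5.5 (adjusted p = 0.0102) and the lineage difference at E6.5 (0.00331) passed.

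Of the 8 members, 1 (Phf19) passed upwards and none downwards from ICM to E4.5 epiblast-like cells in edgeR, where 13.4% of the 16953 genes tested were higher and 7.24% lower. At an unadjusted p of at most 0.05, 1 member (Ezh2) was lower in that step. From E4.5 to E5.5, 3 members fell (Suz12, Jarid2 and Mtf2) and none rose, against 3.13% of genes lower and 2.64% higher. These shares depend on the fit and on the filter on low counts, which was lax because of the classes with 1 sum. With only the groups compared in the fit, 2585 of 12186 genes passed in this step, and in limma 2106 of 16953. The same 3 genes passed in all 12 alternatives tried and in each of 13 fits that left out 1 embryo. From E5.5 to E6.5, 3 rose (Ezh2, Jarid2 and Mtf2) against 7.05% of genes higher and 7.24% lower. With sums of at least 1 cell, Mtf2 lost its call in the latter step (adjusted p = 0.0730). No member rose from E4.5 to E5.5 or fell from E5.5 to E6.5 at an unadjusted p of at most 0.05 either. Whether plates of the same name at different stages were the same plate is not stated, so plate and stage cannot be told apart in these steps.

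From ICM to PrE-like cells, 3 members fell (Ezh2, Suz12 and Jarid2) against 5.48% of genes lower and 13.8% higher. From PrE-like to VE-like cells, 1 rose (Ezh2) against 4.55% higher and 6.89% lower. At an unadjusted p of at most 0.05, none rose in the former step and 1 was lower in the latter. Jarid2 alone passed as lower in endoderm at both stages in edgeR and none as higher (0 and 1 at an unadjusted p of at most 0.05), against 1.77% of genes lower and 3.1% higher at E4.5 and 9.28% lower and 7.24% higher at E6.5. With the embryo as a block, Ezh2 (-0.93, adjusted p = 0.0285) and Suz12 (-1.07, adjusted p = 0.0410) were lower in PrE-like cells as well. Both also passed in limma (0.00276 and 0.0187) and with only the groups compared (0.0262 and 0.0434), and Ezh2 when thinned (0.0441), without the classes of 1 sum (0.0476) and in DESeq2 (0.0246). Over 12 alternatives Ezh2 passed in 6 and Suz12 in 3, and over 5 fits without 1 embryo neither passed. No member passed for the change of the lineage difference between the stages in edgeR, where 0.796% of genes passed on the higher and 2% on the lower side, 1 passed in DESeq2 and in limma (Suz12), and 2 (Suz12 and Phf19) had an unadjusted p of at most 0.05.

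The median log2 fold change over the 8 members was -0.12 from ICM to E4.5 epiblast-like cells, -0.89 from E4.5 to E5.5 and 0.54 from E5.5 to E6.5, beside medians of 0.00, 0.23 and 0.00 over all genes tested. It was -0.82 from ICM to PrE-like cells and 0.26 from PrE-like to VE-like cells, beside 0.09 and -0.03. For endoderm against epiblast it was -0.73 at E4.5 and -0.37 at E6.5, beside 0.03 and -0.25. These medians include Phf19, whose estimates rest on few counts (-2.33 from E4.5 to E5.5, -4.54 between the lineages at E4.5). With Phf19 left out, the middle value in these comparisons was that of Eed, -0.46 and -0.59. From ICM to PrE-like cells it was also that of Eed, -0.89. Comparisons that meet at a class share its sums, so a low value at E5.5 enters both the drop before and the rise after it.

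**Figure D3:**
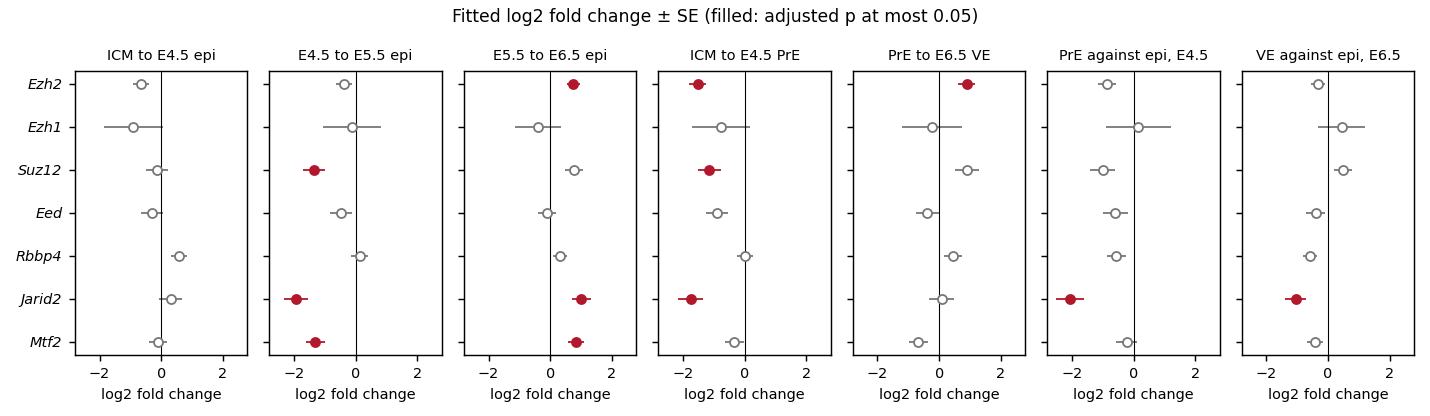
Fitted log2 fold change ± SE (horizontal axes) of 7 members in 7 comparisons, filled where the adjusted p was at most 0.05; Phf19 is left out because of its low counts. From E4.5 to E5.5 the filled points of Suz12, Jarid2 and Mtf2 lie between -1.94 and -1.31, and from E5.5 to E6.5 those of Ezh2, Jarid2 and Mtf2 between 0.75 and 1.02.

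The rise from E5.5 to E6.5 differed between the 9 embryos of plates P1 to P3 and the 4 embryos without a plate name. For Ezh2 the former held 202 to 427 normalised CPM and the latter 146 to 194, with no overlap. Jarid2 held 174 to 466 against 81.0 to 134, again with no overlap, while Mtf2 held 172 to 596 against 150.4 to 232 and Suz12 46.9 to 200.4 against 15.3 to 87.6. The share of all genes whose sums part without overlap is not given, here or between other classes. Fitted with plates P1 to P3 alone, 4 members passed, with rises of 0.90 for Ezh2 (adjusted p = 0.00319), 1.25 for Jarid2 (0.00115), 1.04 for Mtf2 (0.00287) and 0.99 for Suz12 (0.00857). In that fit 2656 of all 16657 genes tested passed in this step, in either direction. Fitted with the embryos without a plate name alone, none passed in edgeR, and the estimates were 0.14 for Ezh2 (adjusted p = 0.916), -0.024 for Jarid2, -0.0023 for Mtf2 and -0.20 for Suz12 (0.902). With these fewer embryos, only 374 of all 16505 genes tested passed. Whether the estimates of other genes shrank in this fit as those of the members did was not tested. The 2 embryos titled E6.75 are among those 4, and without them the rises of the 3 genes still passed. The 24 endoderm markers summed to a median of 2562 CPM (787 to 4843) on the plates and 4061 CPM (1186 to 6026) without a plate name, and the 18 primitive streak markers to 413 CPM (129.5 to 823) and 485 CPM (209 to 649). The 16 epiblast markers summed to a median of 4183 CPM (3387 to 4729) on the plates and 5235 CPM (4365 to 5411) without a plate name. The part of these marker lists in the rise was not tested.

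**Figure D4:**
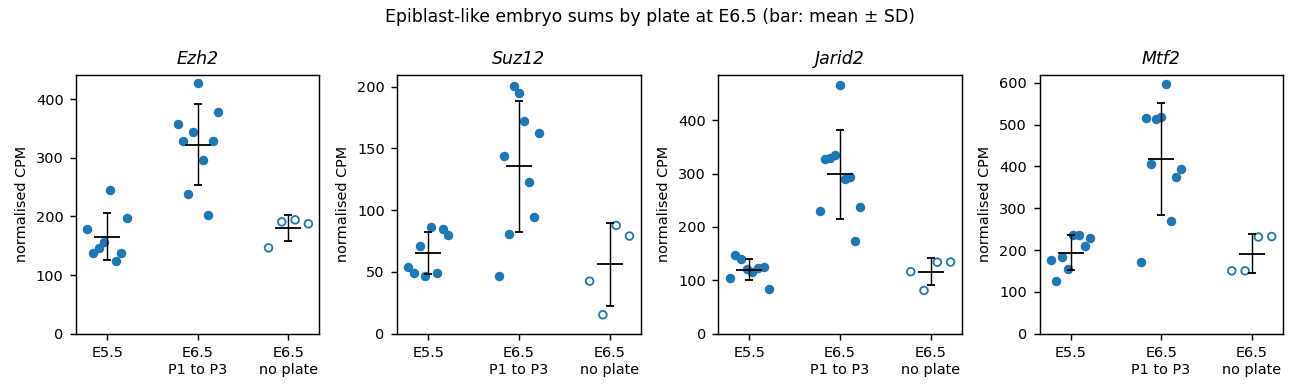
Normalised CPM (vertical axes, from 0) of Ezh2, Suz12, Jarid2 and Mtf2 in epiblast-like sums at E5.5 (8 embryos), at E6.5 on plates P1 to P3 (9 embryos) and at E6.5 without a plate name (4 embryos, open), with the mean ± SD as the bar. The open points of Ezh2 (146 to 194) and Jarid2 (81.0 to 134) lie below all points of the named plates at E6.5.

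Ordered by mean level, the 6 classes with several embryos put the ICM first for Ezh2 (342 ± 129 SD), Ezh1 (31.2 ± 21.8), Suz12 (184 ± 55.9), Eed (315 ± 184) and Mtf2 (517 ± 227). Rbbp4 was highest in the E6.5 epiblast (371 ± 121) and lowest in the ICM (181 ± 59.9). Jarid2 was highest in the E4.5 epiblast (460.3 ± 125) and lowest in PrE-like cells (109.6 ± 25.8). In each of the 40 pairs of neighbours in these orders the ranges of the embryos overlapped.

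Per kb of exon, which allows genes to be compared, Mtf2 led in the ICM (90.7 CPM per kb), the E4.5 epiblast (84.4), PrE-like cells (72.1) and at E6.5 (61.1 in epiblast-like, 45.1 in VE-like cells), and Eed led at E5.5 (48.4). Ezh1 and Phf19 were the lowest 2 in all 8 classes. The upper part of this order depends on the length used, since by the longest transcript Eed led in the ICM and the E4.5 epiblast and Ezh2 at E6.5. Of the summed level of Jarid2, Mtf2 and Phf19, Jarid2 made up 29.4% ± 13.7 (SD, n = 10) in the ICM, 35.3% ± 5.98 (n = 5) in E4.5 epiblast-like and 14.01% ± 4.65 (n = 5) in PrE-like cells. It made up 27.1% ± 6.96 (n = 8) in the epiblast of E5.5, 29.2% ± 6.71 (n = 13) in that of E6.5 and 22.8% ± 16.5 (n = 7) in VE-like cells. The E4.5 ranges, 24.97% to 39.99% and 8.03% to 20.1%, did not overlap.

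**Figure D5:**
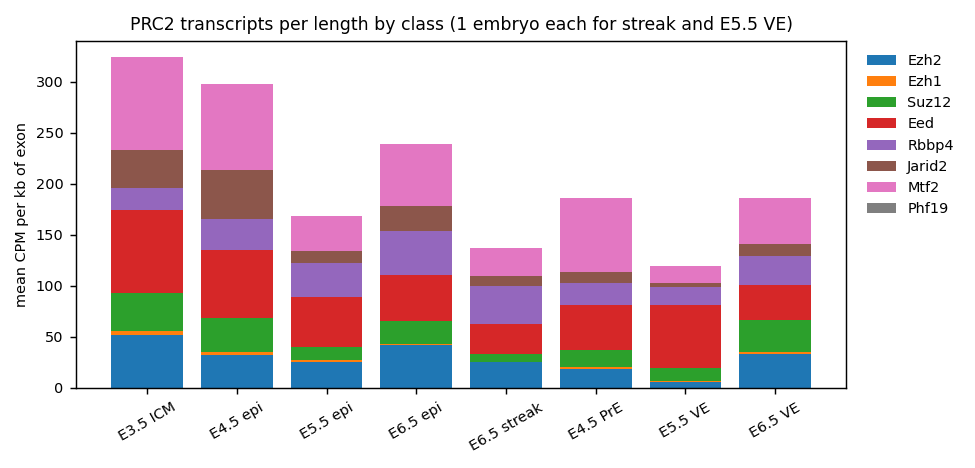
Mean CPM per kb of exon (vertical axis, from 0) of the 8 members, stacked for each class, with 1 embryo each behind the streak and E5.5 VE bars. Mtf2 and Eed take the largest parts in most bars, and Ezh1 and Phf19 the smallest.

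In single cells thinned to 300000 counts each, which left out 46 shallower cells, the common members were found in most cells. Ezh2 had a count in 98.9% of 89 ICM cells (exact 95% interval 93.9% to 99.97%), in 23 of 23 E4.5 epiblast-like and in 96.2% of 78 PrE-like cells. Jarid2 had one in 91.0% of PrE-like cells (82.4 to 96.3) and in 91.6% of 251 epiblast-like cells of E5.5, against all 23 epiblast-like cells of E4.5 and all 159 of E6.5. Its median level per cell was 427 CPM in E4.5 epiblast-like and 68.3 CPM in PrE-like cells. Suz12 was lowest in the E5.5 epiblast, with a count in 85.7% of cells (80.7 to 89.7), and Ezh1 had one in 34.8% to 51.3% of the cells of the 6 classes with several embryos. Phf19 was found in at most 5.41% of the cells of those classes, and in the ICM in 0 of 89 thinned cells and in 1 of 99 cells not thinned. Without thinning, Ezh1 was found in 38.9% to 62.2% of the cells of those classes, Jarid2 in 95.1% of PrE-like cells and Suz12 in 87.6% of E5.5 epiblast-like cells. These intervals cover counting error only.

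The classes with 1 sum allow no test. The streak-like sum, 24 cells of E6.5 embryo 11, held 166 normalised CPM of Ezh2, 35.3 of Suz12, 114 of Eed, 324 of Rbbp4, 95.6 of Jarid2 and 158 of Mtf2. All 6 values lay within the range of the epiblast-like sums of the 4 embryos without a plate name, embryo 11 among them, which for Eed was 59.7 to 190.1 and for Rbbp4 240.1 to 410.2. The VE-like sum of E5.5, 5 cells of embryo 7, held 39.9 of Ezh2, 66.5 of Suz12, 235 of Eed, 154 of Rbbp4, 37.8 of Jarid2 and 98.3 of Mtf2, of which Ezh2, Rbbp4, Jarid2 and Mtf2 were below all 8 epiblast-like sums of that stage.

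Other polycomb genes were taken from a list of 32, 30 of which had a row and were tested. From ICM to E4.5 epiblast-like cells 7 of them rose and 3 fell, where 13.4% of all genes were higher and 7.24% lower, led upwards by Phc1 and Cbx2, subunits of PRC1, which reads the PRC2 mark. Phc1 rose from 11.6 ± 10.3 to 213 ± 66.5 normalised CPM (log2 fold change 4.19, adjusted p = 2.86e-07). Among the 3 that fell were Yaf2, with 597 counts over the ICM and 2 over the epiblast-like class, and Pcgf5 (-3.48, adjusted p = 0.0157). From E4.5 to E5.5, where 2.64% of all genes were higher and 3.13% lower, Yaf2 rose (152-fold in pooled level, counting interval 42.1 to 1258), and Rnf2, the E3 ligase of PRC1, fell by 1.19 (adjusted p = 0.0380) with E130012A19Rik, an accessory PRC2 gene, by 2.22 (adjusted p = 0.0237). From E5.5 to E6.5 none rose in edgeR (2 at an unadjusted p of at most 0.05) and 3 fell, against 7.05% and 7.24% of all genes, among them E130012A19Rik by 2.22 (adjusted p = 0.00163).

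In the endoderm, 3 of the 30 polycomb genes rose and 1 fell from ICM to PrE-like cells, where 13.8% of all genes were higher and 5.48% lower, the last being Aebp2, a partner of Jarid2 in PRC2.2, from 127 ± 59.2 to 16.4 ± 6.07 normalised CPM (-2.95, adjusted p = 5.15e-05). At E4.5, against 3.1% of all genes higher and 1.77% lower, Yaf2 and Pcgf5 were higher and Phc1 lower in PrE-like than in epiblast-like cells (15.6 ± 7.84 against 213 ± 66.5, adjusted p = 8.11e-04). At E6.5, 3 were higher and 2 lower in VE-like cells, against 7.24% and 9.28% of all genes, with Pcgf5 (3.55, adjusted p = 9.29e-04) and Cbx8 (2.18 ± 3.22 against 0.151 ± 0.279 normalised CPM, adjusted p = 0.0234) leading upwards and Cbx6 (-3.32, adjusted p = 0.0208) and Phc1 (-2.43, adjusted p = 0.00253) downwards. From PrE-like to VE-like cells E130012A19Rik alone passed in edgeR, a drop by 3.51 (adjusted p = 3.67e-04), against 6.89% of all genes lower. Medians over the 30 genes stood at 0.45, -0.39 and 0.15 in the 3 epiblast steps and 0.43 and -0.10 in the endoderm steps.

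Of 25 developmental regulators known as polycomb targets, 22 were tested. Several of them (Gata4, Gata6, Foxa2, Fgf5, Mixl1 and Cdx2 among those named) are also markers by which cells were classed, so their differences between classes are descriptions. From E4.5 to E5.5, where Suz12, Jarid2 and Mtf2 fell, none passed in edgeR in either direction (2 higher and 3 lower at an unadjusted p of at most 0.05). Of all genes only 2.64% were higher and 3.13% lower in that step. From E5.5 to E6.5, 7 of the 22 rose and none fell (4 lower at an unadjusted p of at most 0.05), against 7.05% of all genes higher and 7.24% lower. Those with the largest folds, from near 0, were Foxa2, from 0.0549 ± 0.108 to 9.68 ± 10.2 normalised CPM (adjusted p = 9.81e-06), and Mixl1, from 0.254 ± 0.212 to 43.2 ± 60.0 (adjusted p = 1.40e-05), endoderm and streak regulators. The median over the list was 1.48 beside 0.00 over all genes. From ICM to E4.5 epiblast-like cells 5 rose and 3 fell, against 13.4% and 7.24% of all genes. Fgf5 was at least 267-fold higher and Cdx2 at least 58.4-fold lower against 3 counts over the group at 0, but Fgf5 (17.0 ± 35.8 normalised CPM) was at 0 in 3 of the 5 epiblast-like sums and Cdx2 (16.1 ± 35.7) in 6 of the 10 ICM sums. From PrE-like to VE-like cells 6 rose and none fell, against 4.55% and 6.89% of all genes, and at E6.5, against 7.24% and 9.28%, 5 were higher in VE-like cells and none lower (0 lower at an unadjusted p of at most 0.05 in both), led by Gata4 (4.63, adjusted p = 2.82e-04) and Gata6 (3.92, adjusted p = 0.00188). At E4.5, against 3.1% of all genes higher and 1.77% lower, 3 were higher in PrE-like cells, again led by Gata4 and Gata6, and 2 lower, of which Otx2 differed by -4.38 (adjusted p = 0.00108).

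Of 19 replication genes tested, none passed in edgeR from E4.5 to E5.5 (5 higher at an unadjusted p of at most 0.05). In that step only 2.64% of all genes were higher and 3.13% lower. From E5.5 to E6.5, 5 fell and none rose (2 higher at an unadjusted p of at most 0.05). Of all genes 7.24% were lower and 7.05% higher there, and Ezh2, Jarid2 and Mtf2 rose in that step. From ICM to PrE-like cells 3 fell and 1 rose, against 5.48% and 13.8% of all genes, with Mcm2, a helicase subunit, down by 1.59 (adjusted p = 2.42e-05). Over all 50 embryo sums the Pearson correlation of log2(CPM + 1) between Ezh2 and the mean of the replication genes was 0.04, with classes, depth and plates shared between points. By the same measure the 5 genes of 16953 most like Ezh2 were Smarca5 (0.82), C80913 (0.78), Wtap (0.78), Spry2 (0.76) and Hdgf (0.73). Those most like Ezh1 were Snapc2 (0.66), Htatip2 (0.65), 1810026J23Rik (0.64), Rbm19 (0.64) and Sap130 (0.61). Suz12 was most like Nucks1 (0.71), Eed like Fyb (0.69), Rbbp4 like Plxdc2 (0.73), Jarid2 like Rest (0.83), Mtf2 like Idh1 (0.70) and Phf19 like Cpne2 (0.75). Among the members, the correlation with Ezh2 was 0.57 for Jarid2, 0.53 for Suz12, 0.47 for Mtf2, 0.24 for Eed, 0.11 for Rbbp4, 0.01 for Ezh1 and -0.08 for Phf19, and that of Suz12 with Mtf2 was 0.66.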

How the data were processed

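RNA of single cells was sequenced by G&T-seq (Smart-seq2 cDNA). The authors trimmed and aligned reads to GRCm38 (per the submitters' notes with Trim Galore 0.4.3 and HISAT2 2.0.5) and counted reads per gene with SeqMonk. The deposited table holds raw counts per gene and cell after the study's filters on genes, mitochondrial reads and wells. Cells were clustered in Python 3.11.15 (scikit-learn 1.9.0) with the transformations and repeated k-means of SC3 (detection limits 6% and 94% of cells), the members and the polycomb and replication lists being held out. Clusters of E4.5 to E6.5 were named from marker lists, and E3.5 cells by their stage label. Counts were summed per class and embryo (at least 3 cells). All sums, with totals from 1165967 to 49484352, entered 1 edgeR 4.0.16 quasi-likelihood fit (R 4.3.3, TMM, filterByExpr, 16953 genes tested), with Benjamini-Hochberg adjustment over all genes tested and a threshold of 0.05. Standard errors of log2 fold changes were computed from the test, as the absolute log2 fold change over the square root of the quasi-likelihood F. The study states that its batches were separate litters. The labels tie no embryo to a litter and leave 9 E3.5 cells without an embryo number (1 sum), so p-values measure the spread between these sums, some of which may share a litter. DESeq2 1.42.0 and limma 3.58.1 served as alternatives, beside other filters, class rules, plates and left-out embryos. Scripts were tested on simulated data.

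The members and lists were chosen with earlier results of these data known. All members are named, and of the other lists the 2 largest rises and the 2 largest drops that passed; for likeness, the 5 genes of highest Pearson correlation over sums. Lineages of the same embryo pair by origin; the correlations of their deviations from the class means ran from 0.02 to 0.10 at E4.5 and from 0.03 to 0.31 at E6.5. Doubles were kept, no doublet caller was run, and 95% intervals are exact (Clopper-Pearson). Depth limits low genes: the floor of 3 counts over a class stood between 0.0137 and 0.433 CPM.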

Additional observations from a re-analysis of the deposited data

Results flagged for a closer look

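Of 40 sets of 4 to 10 embryo sums (a member in a class), 10 held a sum that stood apart from the rest of its class by Dixon's test. The rate of about 5% at which chance gives such a flag assumes normally distributed values. Sets of Phf19, mostly at or near 0, do not meet this, so no excess over chance is read from the count. In the ICM, Eed reached 779 normalised CPM in embryo 1 (next 409.9), Mtf2 1118 in embryo 5 (next 586) and Phf19 0.210 in embryo 9, the rest being at 0. In the E4.5 epiblast, Eed reached 430.3 in embryo 4 (next 232), Rbbp4 394 in embryo 3 (next 257) and Phf19 16.5 in embryo 3, the rest being at 0. In PrE-like cells, Jarid2 was lowest in embryo 1, at 64.2 (next 115). At E5.5, Phf19 reached 3.75 in epiblast-like cells of embryo 4 (next 0.681). In VE-like cells at E6.5, Ezh1 reached 75.1 in embryo 5 (next 14.5) and Phf19 11.4 in embryo 13 (next 0.478).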

How the results depend on the processing

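The number of members that passed was 1 for ICM to E4.5 epiblast, 3 for E4.5 to E5.5, 3 for E5.5 to E6.5, 3 for ICM to PrE, 1 for PrE to VE, 1 for the lineages at each stage and 0 for the change between the lineage differences. Of the members' values under the alternatives, 714 kept direction and side of the threshold, 26 came to pass, 16 no longer passed and 57 changed sign. The drops of Suz12, Jarid2 and Mtf2 from E4.5 to E5.5 passed in each of 12 alternatives and 13 fits without 1 embryo. Members that came to pass or no longer passed are named after each changed count, and the cause of each change was not tested. Mtf2 passed from PrE to VE without doubles as a drop (-0.85, adjusted p = 0.0451, against -0.68 and 0.144 with all cells).

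With DESeq2's size factors the count was 2 for ICM to E4.5 epiblast (with Ezh2) and 2 for lineages at E6.5 (with Phf19), and the sign turned to -0.037 for Rbbp4 (ICM to PrE), 0.096 for Rbbp4 (change between the lineage differences). With no filter on low counts the count was 0 for PrE to VE (without Ezh2), and the sign turned to -0.015 for Jarid2 (PrE to VE). With the study's log2 fold limit the count was 1 for E5.5 to E6.5 epiblast and 0 for PrE to VE. With at least 1 cell per sum the count was 2 for E5.5 to E6.5 epiblast (without Mtf2), 0 for PrE to VE (without Ezh2) and 2 for lineages at E6.5 (with Ezh2), and the sign turned to -0.023 for Rbbp4 (ICM to PrE), 0.17 for Ezh1 and -0.23 for Jarid2 (PrE to VE), 0.056 for Rbbp4 (change between the lineage differences). With at least 5 cells per sum the count was 0 for ICM to E4.5 epiblast (without Phf19), 4 for E5.5 to E6.5 epiblast (with Suz12), 2 for ICM to PrE (without Suz12), 0 for PrE to VE (without Ezh2) and 0 for lineages at E6.5 (without Jarid2), and the sign turned to 0.040 for Suz12, 0.17 for Mtf2 and -2.59 for Phf19 (ICM to E4.5 epiblast), 0.11 for Ezh1 and 6.18 for Phf19 (E4.5 to E5.5 epiblast), -0.13 for Rbbp4 (ICM to PrE), 0.57 for Ezh1 and -0.29 for Jarid2 (PrE to VE), 4.03 for Phf19 (lineages at E4.5), 0.045 for Mtf2 and -3.64 for Phf19 (change between the lineage differences). Without doubles the count was 0 for ICM to E4.5 epiblast (without Phf19), 4 for E5.5 to E6.5 epiblast (with Suz12), 2 for ICM to PrE (without Suz12) and 1 for PrE to VE (with Mtf2, without Ezh2), and the sign turned to 0.65 for Ezh1 (E4.5 to E5.5 epiblast), -1.90 for Phf19 (ICM to PrE), -0.19 for Jarid2 (PrE to VE), 0.17 for Mtf2 (lineages at E4.5), -0.28 for Ezh1 (change between the lineage differences). Thinned to 300000 counts per cell the count was 2 for ICM to E4.5 epiblast (with Ezh2), 4 for ICM to PrE (with Eed) and 2 for lineages at E4.5 (with Ezh2), and the sign turned to -0.064 for Rbbp4 (ICM to PrE), -0.045 for Jarid2 (PrE to VE). With Ward clustering the count was 2 for ICM to E4.5 epiblast (with Ezh2), 2 for E5.5 to E6.5 epiblast (without Jarid2) and 2 for lineages at E6.5 (with Phf19), and the sign turned to -0.48 for Ezh1 and 0.018 for Mtf2 (lineages at E4.5). Without cells titled E6.75 the count was 0 for lineages at E6.5 (without Jarid2), and the sign turned to -3.63 for Phf19 (PrE to VE), -3.42 for Phf19 (lineages at E6.5), -0.11 for Eed (change between the lineage differences). On E6.5 plates P1 to P3 the count was 4 for E5.5 to E6.5 epiblast (with Suz12), and the sign turned to 0.0035 for Eed (E5.5 to E6.5 epiblast), -3.65 for Phf19 (PrE to VE), -3.70 for Phf19 (lineages at E6.5), -0.25 for Eed (change between the lineage differences). In E6.5 embryos without a plate name the count was 0 for E5.5 to E6.5 epiblast (without Ezh2, Jarid2 and Mtf2), 0 for PrE to VE (without Ezh2) and 0 for lineages at E6.5 (without Jarid2), and the sign turned to 0.011 for Ezh1, -0.20 for Suz12, -0.024 for Jarid2 and -0.0023 for Mtf2 (E5.5 to E6.5 epiblast), -1.46 for Jarid2 (PrE to VE), -0.98 for Ezh1, 0.40 for Eed and 0.087 for Mtf2 (lineages at E6.5), -1.15 for Ezh1, 0.21 for Rbbp4 and 0.31 for Mtf2 (change between the lineage differences). Without the classes of 1 sum, an alternative chosen after seeing the data, the count was 0 for ICM to E4.5 epiblast (without Phf19) and 2 for lineages at E4.5 (with Ezh2), and the sign turned to -0.031 for Jarid2 (PrE to VE). With limma on means of log2(CPM + 1) the count was 0 for ICM to E4.5 epiblast (without Phf19), 4 for E5.5 to E6.5 epiblast (with Suz12), 3 for lineages at E4.5 (with Ezh2 and Suz12), 2 for lineages at E6.5 (with Rbbp4) and 1 for change between the lineage differences (with Suz12), and the sign turned to 0.16 for Suz12 and 0.15 for Mtf2 (ICM to E4.5 epiblast), 0.38 for Ezh1 (ICM to PrE), -0.66 for Ezh1 and 0.13 for Mtf2 (change between the lineage differences). With only the groups compared in the fit the count was 0 for ICM to E4.5 epiblast (without Phf19), 3 for lineages at E4.5 (with Ezh2 and Suz12) and 0 for lineages at E6.5 (without Jarid2). With DESeq2 the count was 1 for ICM to E4.5 epiblast (with Ezh2, without Phf19), 4 for ICM to PrE (with Eed), 2 for lineages at E4.5 (with Ezh2) and 1 for change between the lineage differences (with Suz12), and the sign turned to -0.037 for Rbbp4 (ICM to PrE), -0.62 for Phf19 (PrE to VE), -0.11 for Phf19 (lineages at E6.5), 0.095 for Rbbp4 (change between the lineage differences). With the embryo as a replicate block the count was 3 for lineages at E4.5 (with Ezh2 and Suz12), and the sign turned to -0.77 for Ezh1 (lineages at E6.5), -1.71 for Ezh1 (change between the lineage differences). Leaving out 1 embryo at a time gave counts of 0 to 2 for ICM to E4.5 epiblast, 3 to 3 for E4.5 to E5.5 epiblast, 2 to 4 for E5.5 to E6.5 epiblast, 2 to 3 for ICM to PrE, 0 to 1 for PrE to VE, 1 to 1 for lineages at E4.5, 1 to 2 for lineages at E6.5 and 0 to 1 for change between the lineage differences. Values that changed sign in such a fit ran from -0.17 to 0.096 for Mtf2, -1.75 to 8.17 for Phf19 and -0.27 to 0.0063 for Suz12 (ICM to E4.5 epiblast), from -0.42 to 0.44 for Ezh1 and -3.91 to 5.87 for Phf19 (E4.5 to E5.5 epiblast), from -0.14 to 0.13 for Rbbp4 (ICM to PrE), from -0.21 to 0.18 for Jarid2 and -0.68 to 5.05 for Phf19 (PrE to VE), from -0.053 to 0.54 for Ezh1 and -5.03 to 2.19 for Phf19 (lineages at E4.5), from -1.02 to 0.83 for Ezh1 and -0.34 to 7.45 for Phf19 (lineages at E6.5), from -0.12 to 0.55 for Eed, -0.31 to 0.15 for Rbbp4 and -1.19 to 0.66 for Ezh1 (change between the lineage differences). The replicate block changed no other call than those of Ezh2 and Suz12 at E4.5. The blocked fits of both lineages used 5 embryos at E4.5 and 7 at E6.5. Phf19 fell below the filter, and has no value, without the classes of 1 sum, with only the groups compared and, between lineages, with the block, and DESeq2 gave it no adjusted p. Over all genes, the number that passed, with its range over the alternatives, was 3506 (1574 to 4150) for ICM to E4.5 epiblast, 977 (642 to 2585) for E4.5 to E5.5 epiblast, 2423 (374 to 3151) for E5.5 to E6.5 epiblast, 3276 (1676 to 3770) for ICM to PrE, 1940 (439 to 2746) for PrE to VE, 826 (343 to 2529) for lineages at E4.5, 2801 (268 to 3289) for lineages at E6.5 and 474 (111 to 1366) for change between the lineage differences. In the embryos without a plate name, fewer embryos enter the fit. Depth limits Phf19, whose counts were few. Ezh1 had more, from 253 over the E4.5 epiblast-like class to 3400 over that of E5.5. Its levels differed widely between embryos, and the part of depth in its wide errors was not tested.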
